A study of Mus musculus with 36 samples.

Results

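The comparison asked what a mutant tau transgene adds to hippocampal gene expression when an amyloid transgene is already present and the mouse has just learned and recalled a maze. It rests on 6 of the 36 bulk RNA sequencing libraries of the study, chosen by genotype and training alone: 3 from trained APP/Tau mice and 3 from trained APP mice. All were female and 6 months old. The APP mice belonged to the J9 line, whose human APP carries Swedish and Indiana changes, and the APP/Tau mice combined this line with PS19, which expresses human tau bearing P301S. Both groups, like every other mouse of the study, also carried Pvalb-IRES-Cre and a RiboTag allele, on C57BL/6. Cre in parvalbumin interneurons then tags the ribosomal protein Rpl22, but the libraries hold the untagged input fraction of cleared lysate from both hippocampi, and so RNA of every cell type in the dissection. As background, the J9 transgene is driven by a platelet-derived growth factor promoter and the PS19 transgene by the mouse prion promoter. Training was 6 trials a day for 5 days in the Morris water maze, a pool with a hidden platform, followed 24 hours later by a probe test, and tissue was taken 2 hours after that. Since the labels number the libraries without tying each to a separate mouse, the p-values below measure library spread, part of which may be technical.

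Tau stabilises axonal microtubules. In tauopathy it becomes highly phosphorylated and aggregates in neurons, and P301S speeds that aggregation. Amyloid-β peptides cut from APP gather in plaques that microglia surround, and such microglia switch on a set of disease-associated genes. Type I interferon switches on antiviral genes in microglia, astrocytes and other brain cells, while oligodendrocytes wrap axons in myelin.

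Library totals, in M (mega) counts, ran from 77 to 124.8 in the APP and from 74.2 to 82.7 in the APP/Tau libraries. No 2 libraries of a group were identical or within counting noise of each other, as chi-square over degrees of freedom ran from 38.2 to 123. Levels are given as CPM, counts per M counts after TMM scaling, in the order of replicates 1, 2 and 3. A log2 change is that of APP/Tau over APP, with its standard error (SE), from edgeR's quasi-likelihood test, and a gene was called when its adjusted p was under 0.05. Members of the gene lists beyond those the naming rule took were named after their values were seen.

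Few single genes passed. Of 25382 genes tested, 3 rose in trained APP/Tau over trained APP libraries, which is 0.0118%, and none fell (0%). At an unadjusted p under 0.05 stood 897 genes (3.53%) on the higher and 761 (3%) on the lower side. Every APP/Tau library lay above every APP library for 1064 genes (4.19%) and below for 976 (3.85%). Over all genes tested, the median log2 change was −0.012 and 47.4% of genes were above 0. These shares are the background against which the gene groups stand.

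The 3 called genes were Prnp, Lamr1-ps1 and Gm32754, and all of them were also called in naive APP/Tau over naive APP libraries. Prnp, which encodes the prion protein, read 776, 866 and 737 CPM in the APP and 1860, 1745 and 1423 CPM in the APP/Tau libraries. The groups did not overlap, and Prnp rose by a log2 change of 1.08 (SE 0.169, adjusted p = 0.00719). Whether some reads counted as Prnp come from the tau transgene, which uses the mouse prion promoter, was not tested. In naive mice, from other libraries, 6 genes were higher (0.0236% of those tested) and 2 lower (0.00788%) by the same test, and these 6 were the Tau-line genes described here. For Prnp the log2 change was 1.04, and in trained Tau over trained WT mice, again other libraries, it was 1.11, where 22 genes rose (0.0867%) and 60 fell (0.236%). That Tau group holds the library labelled Tau trained replicate 4, which had 0 counts of the 5 other Tau-line transcripts and 846 CPM of Prnp, against 2142, 1759 and 2052 CPM in replicates 1 to 3. Without it the Prnp change was 1.34, and 15 genes rose and 14 fell. The sum of calls ran from 10 to 335 when other single libraries of these groups were left out. The call did not hold under every setting. The adjusted p of Prnp was 0.615 with limma-voom and sample quality weights together, 0.193 in a fit on only these 6 libraries and 0.31 with replicate 1 of both groups left out, where its log2 change was 1.12, 1.09 and 0.98. Without APP replicate 1, APP replicate 3 or APP/Tau replicate 1 alone it was 0.0849, 0.0924 and 0.0564.

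The sequence before the start of Prnp is shown because it is the well-expressed gene that passed, and because its mouse promoter is the kind used in the tau transgene. It holds the 250 bases before the start, 5′ to 3′, from RefSeq on GRCm38.p6. No capitals are set, since the interferon motif searched further on has no match here.
Prnp (chr2:131909678-131909927, + strand): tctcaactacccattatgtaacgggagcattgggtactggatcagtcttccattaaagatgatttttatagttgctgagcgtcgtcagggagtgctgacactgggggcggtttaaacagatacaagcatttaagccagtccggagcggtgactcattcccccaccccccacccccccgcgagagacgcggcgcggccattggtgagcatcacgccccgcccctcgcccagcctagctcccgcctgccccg
Prn, a read-through gene of Prnp and its neighbour Prnd, has the same start, so counts of Prn and Prnp cannot be fully told apart.

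Lamr1-ps1, a pseudogene of the laminin receptor and ribosomal protein gene Rpsa, lies next to Prnp in the gene order of GRCm38.p6. It had 0, 0 and 1 counts in the APP and 3.18, 2.85 and 1.75 CPM in the APP/Tau libraries, 1 count against 632 in all. The ratio of these sums per counted read was 768, with a 95% counting interval of 137 to 30400. Its parent Rpsa stood at 249, 391 and 268 CPM against 291, 273 and 294, and the groups overlapped. Reads of a pseudogene and its parent can be exchanged in counting, so the level of Lamr1-ps1 is uncertain. Gm32754, a noncoding gene on chromosome 3, had 0 counts in the 3 APP libraries together and 86 in the APP/Tau libraries. Set against a floor of 3 counts for the group, it was at least 34.8-fold higher.

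Next to Gm32754 on chromosome 3 lie Gm6214, Gm32875 and 4930590L14Rik, and all of them had 0 counts in the 3 APP libraries. 4930590L14Rik had 90 counts in the APP/Tau libraries (at least 36.5-fold higher, adjusted p = 0.0851), Gm6214 had 31 (at least 12.6-fold, adjusted p = 0.129) and Gm32875 had 15 (at least 6.08-fold, adjusted p = 0.526). These 6 Tau-line transcripts were picked earlier from these same libraries, so their direction is no independent evidence. Summed over the 5 other than Prnp, the APP/Tau libraries held 350, 317 and 187 counts and the APP libraries 0, 0 and 1. Given how they were picked, these sums are no independent check of the labels. Protein-coding neighbours differed less. Rassf2, a Ras-association gene near Prnp, stood at 45, 60.1 and 67.4 CPM against 71.3, 77.3 and 77.1, a log2 change of 0.39 (unadjusted p = 0.00207), and Prn had a log2 change of 0.30 (unadjusted p = 0.00255), neither of them called. On chromosome 3, the netrin receptor gene Unc5c had a log2 change of −0.34 (unadjusted p = 0.0124) and the BMP receptor gene Bmpr1b one of 0.02. The counted genes are mouse genes, and mouse App (1482, 1639 and 1594 against 1570, 1653 and 1666 CPM) and Mapt (510, 595 and 543 against 506, 561 and 575 CPM) overlapped between the groups. Usp16, a histone deubiquitinase gene, was chosen with earlier results of these data known, so its levels are no independent check of the APP labels. It read 14.4, 14.1 and 14.4 against 13.5, 13.4 and 13.9 CPM, where trained WT libraries read 24.8 to 30.2 CPM.

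**Figure D1:**
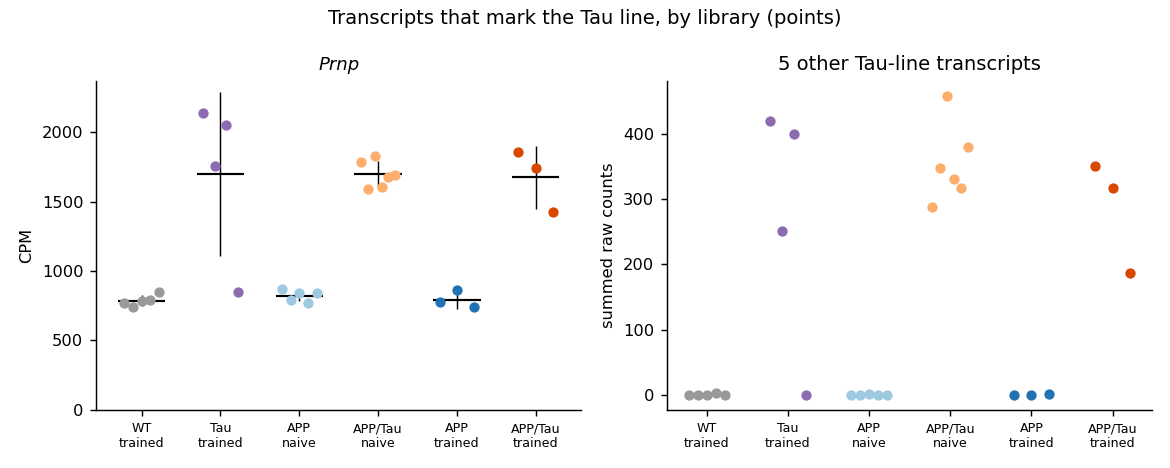
Left, Prnp in CPM by library (points), with the mean (line) and SD (bar) of each group. Right, the summed raw counts of Lamr1-ps1, Gm32754, Gm6214, Gm32875 and 4930590L14Rik. The APP/Tau trained libraries hold 187 to 350 of these counts and the APP trained libraries 0 or 1, while the library labelled Tau trained replicate 4 lies with the groups that lack the Tau transgene.

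Apart from the Tau-line transcripts, interferon-stimulated genes had the highest median of the gene lists. All 31 tested members had a log2 change above 0, with a median of 1.10. In 23 of 31 (74.2%, against 4.19% of all genes) every APP/Tau library lay above every APP library. An unadjusted p under 0.05 was reached by 21 members, all higher, and none was called after adjustment over all genes. Summed over the list, the APP libraries held 139, 142 and 147 CPM and the APP/Tau libraries 323, 180 and 184 CPM.

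Oasl2, an antiviral gene of the oligoadenylate synthetase family, read 2.02, 1.73 and 2.04 CPM in the APP and 26, 3.56 and 4.45 CPM in the APP/Tau libraries. APP/Tau replicate 1 was far above the other two, which still exceeded every APP library. The log2 change was 2.56 (SE 0.784, adjusted p = 0.706). Xaf1, an interferon-induced promoter of apoptosis, stood at 2.9, 3.12 and 3.9 against 8.74, 4.78 and 4.47 CPM, a log2 change of 0.86 (SE 0.266, adjusted p = 0.706). Cxcl10, a chemokine that draws T cells, was near the detection floor in APP mice at 0.105, 0.241 and 0.138 CPM and read 3.78, 0.435 and 0.998 CPM in APP/Tau mice. Its log2 change was 3.45 (SE 1.2). Here too the groups were apart and the first APP/Tau library highest.

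The signalling genes of the pathway showed the same order. Irf7, the transcription factor that amplifies interferon production, read 0.944, 1.52 and 1.05 against 6.73, 2.06 and 2.02 CPM (log2 change 1.63, unadjusted p = 0.0152). Usp18, which switches the receptor off again and strips ISG15 from proteins, stood at 0.483, 0.628 and 0.421 against 2.88, 1.26 and 1.37 CPM. Isg15, the ubiquitin-like modifier itself, read 1.23, 0.602 and 1.03 against 4.13, 1.43 and 1.37 CPM. Stat2 and Irf9, which act downstream of the interferon receptor, overlapped between the groups, at a log2 change of 0.15 and 0.53.

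Of the genes that act on viral RNA, Ifit1 read 1.85, 1.43 and 1.46 against 8.36, 3.02 and 3.8 CPM, and Ifit3 read 5.44, 4.56 and 5.88 against 16.3, 6.8 and 11 CPM. Ifit3b, a close copy of Ifit3, stood at 2.98, 3.49 and 3.67 against 10.2, 3.97 and 5.75 CPM, and how reads were shared between these 2 genes is not known. Rsad2, which encodes viperin, read 1.12, 0.775 and 0.858 against 2.76, 1.45 and 1.92 CPM. Zbp1, a sensor of Z-form nucleic acid, was almost absent from APP libraries (0.063, 0 and 0.0972 CPM) and read 1.13, 0.157 and 0.25 CPM in APP/Tau libraries. The members with overlapping groups were Lgals9, Oas1a, Oas3, Irf9, Ifi27, Gbp2, Bst2 and Stat2.

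Promoter sequences of 4 members are printed because the members lay higher together and the motif that interferon factors bind can be read in them. The motif searched was GAAANNGAAA, on both strands (the reverse complement reads TTTCNNTTTC, and overlapping matches were all kept), from 250 bases before to 50 after the RefSeq start on GRCm38.p6. It was present for 16 of the 22 listed genes that matched the promoter table (72.7%), against 3.99% of 27025 gene symbols, 2 of 26 disease-associated microglia genes (7.69%) and 0 of 18 myelin genes. Only the 250 bases before the start are shown, in lower case, with the fixed bases of each match in capitals.
Isg15 (chr4:156200819-156201068, - strand): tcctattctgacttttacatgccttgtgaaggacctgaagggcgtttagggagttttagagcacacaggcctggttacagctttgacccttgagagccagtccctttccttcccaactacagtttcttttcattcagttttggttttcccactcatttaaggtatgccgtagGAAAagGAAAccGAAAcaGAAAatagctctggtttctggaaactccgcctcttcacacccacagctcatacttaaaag
Ifit3 (chr19:34583279-34583528, + strand): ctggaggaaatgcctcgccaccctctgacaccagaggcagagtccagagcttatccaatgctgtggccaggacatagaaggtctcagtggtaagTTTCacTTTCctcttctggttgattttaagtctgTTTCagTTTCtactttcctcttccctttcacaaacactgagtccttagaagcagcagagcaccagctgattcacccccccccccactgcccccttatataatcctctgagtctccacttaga
Cxcl10 (chr5:92348890-92349139, - strand): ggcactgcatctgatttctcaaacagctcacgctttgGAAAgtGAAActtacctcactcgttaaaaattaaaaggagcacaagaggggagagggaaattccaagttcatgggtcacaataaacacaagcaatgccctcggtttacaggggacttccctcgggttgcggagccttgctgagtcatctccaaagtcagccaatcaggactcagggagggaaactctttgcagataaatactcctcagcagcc
Oasl2 (chr5:114896684-114896933, + strand): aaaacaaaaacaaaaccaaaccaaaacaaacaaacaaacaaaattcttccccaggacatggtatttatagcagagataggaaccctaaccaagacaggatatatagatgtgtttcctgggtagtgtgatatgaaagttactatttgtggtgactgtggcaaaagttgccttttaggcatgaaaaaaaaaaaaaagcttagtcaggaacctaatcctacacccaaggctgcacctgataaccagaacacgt
Isg15 has 3 overlapping matches, starting 78, 72 and 66 bases before the gene's start, Ifit3 has 2 (156 and 122 bases before) and Cxcl10 has 1 (213 bases before). Oasl2, the member with the smallest p, has none in this window, and neither does Irf7. A match is a string of letters in the reference, not a measured site, and these promoters were not assayed here.

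How much of the interferon pattern rests on 1 library can be read from the fits without it. Leaving out APP/Tau replicate 1 lowered the list median from 1.10 to 0.58 and left 1 member with an unadjusted p under 0.05, but 30 of 31 members stayed above 0. In 23 of 31 members both remaining APP/Tau libraries lay above all 3 APP libraries, where 8.25% of all genes did. This count was also 23 with no library left out. It cannot fall when a library is dropped, so it does not show how much rests on 1 library. Leaving out any other of the 6 libraries gave medians up to 1.33. List scores, the mean log2 CPM of the members minus their mean over the 36 libraries, were −0.40, −0.45 and −0.21 in the APP and 1.55, 0.27 and 0.42 in the APP/Tau libraries. Homeostatic microglia markers were also high in the first APP/Tau library: 20 of 22 lay above 0, and their sum was 497, 675 and 560 CPM in the APP and 1164, 600 and 559 CPM in the APP/Tau libraries. Their part in the interferon pattern was not tested. In bulk tissue, more cells of a type and more RNA per cell cannot be told apart.

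The interferon list also lay above 0 in the other comparisons of Tau, by less. Its median was 0.35 in naive APP/Tau over naive APP mice (28 of 31 above 0) and 0.55 in trained Tau over trained WT mice (28 of 31). Without the library labelled Tau trained replicate 4, whose score of −0.53 was the lowest of its group, the latter was 0.68 (28 of 31). Of the genes above, Cxcl10 had a log2 change of 2.05 and 1.85 there, and Oasl2 one of 0.75 and 1.13, with 2.20 and 1.39 in place of the second values without that library. The scores of single naive APP/Tau libraries ran from −0.59 to 1.39, and that of replicate 3 lay below all 3 trained APP libraries. Scores in groups without Tau ran from −0.32 to 0.53 in naive APP, −0.53 to 0.27 in naive WT and −0.788 to −0.235 in trained WT libraries. APP naive replicate 1, at 0.53, thus lay above APP/Tau trained replicates 2 and 3, at 0.27 and 0.42. The change in trained minus that in naive mice was itself tested, and no gene passed. The smallest unadjusted p among the listed members for this difference was 0.0528, for Zbp1.

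**Figure D2:**
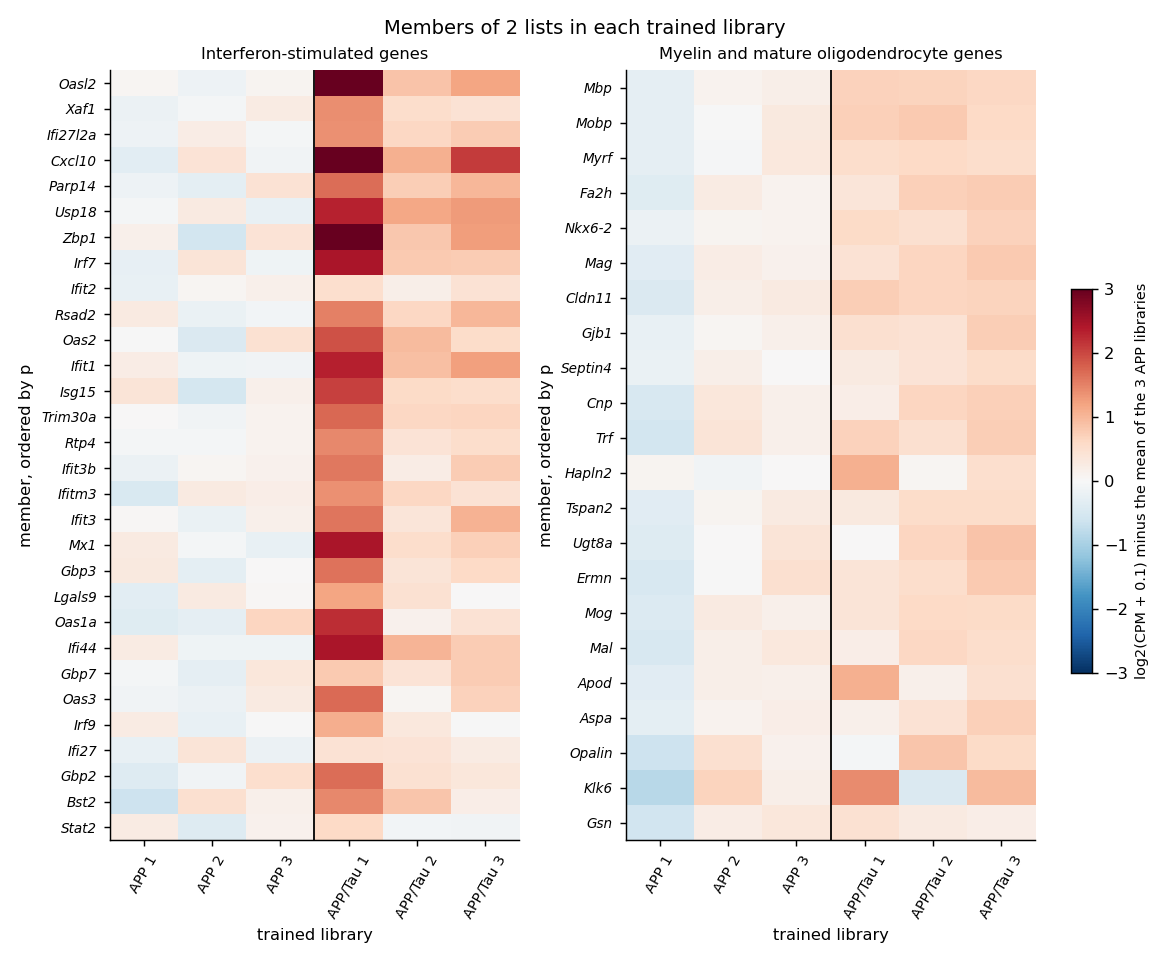
Each row is a member of 1 of the 2 lists (a few members are not drawn) and each column a trained library. Colour is log2(CPM + 0.1) minus the mean of the 3 APP libraries, limited to 3 in either direction. Interferon genes are darkest in APP/Tau replicate 1 and mostly above the APP libraries in the other two, while myelin genes are mostly higher in all 3 APP/Tau libraries and lowest in APP replicate 1.

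Disease-associated microglia genes were high in 1 APP/Tau library. Of 32 members 30 had a log2 change above 0, with a median of 0.63, and 10 had an unadjusted p under 0.05, all higher. None was called. In 7 of 32 members (21.9%, against 4.19% of all genes) every APP/Tau library lay above every APP library. Clec7a, a receptor that marks plaque-associated microglia, read 0.063, 0.134 and 0.13 CPM in the APP and 13.8, 0.411 and 0.21 CPM in the APP/Tau libraries. Cst7, a cysteine protease inhibitor, read 0.0944, 0.0802 and 0.105 against 7.56, 0.133 and 0.131 CPM, and the integrin gene Itgax 0.063, 0.615 and 0.47 against 16.9, 0.869 and 0.184 CPM. For all 3, APP/Tau replicate 1 was far above any other of the 6 libraries. Their log2 changes of 5.45, 4.77 and 3.97 rest on it.

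The chemokine gene Ccl3 read 0.0315, 0.0267 and 0.0972 CPM in the APP and 2, 0.169 and 0.144 CPM in the APP/Tau libraries, with a log2 change of 3.78 (unadjusted p = 0.00497). The receptor gene Trem2 stood at 6.3, 11.3 and 7.45 against 23.6, 8.98 and 6.69 CPM and its adaptor Tyrobp at 4.47, 7.61 and 5.19 against 19.3, 6.7 and 5.66 CPM, with overlap in both. The lysozyme gene Lyz2 read 30.4 CPM in APP/Tau replicate 1 and 3.73 to 9.84 CPM in the other 5 libraries. Csf1, a growth factor for microglia, and the receptor kinase Axl were apart in all libraries, at 25.1, 25.7 and 27.8 against 43.9, 32.1 and 30.2 CPM for Csf1 and 38.6, 44.4 and 41.4 against 67.6, 46.4 and 46.1 CPM for Axl. Without APP/Tau replicate 1 the list median was 0.095, no member had an unadjusted p under 0.05, and 21 of 32 lay above 0.

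A division within the genotype was also present in other Tau carriers. In the 6 naive APP/Tau libraries Clec7a read 12.4, 1.31, 0.202, 0.129, 0.269 and 14.3 CPM, high in replicates 1 and 6. The trained Tau libraries read 1.39, 0.204, 6.55 and 0.059 CPM, the last in the library that lacks the Tau-line transcripts. No APP or trained WT library exceeded 0.432 CPM. High Clec7a was thus found in some Tau carriers with and without APP, trained or naive.

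C3, the central complement component, had the smallest p of the immune genes listed, and all 3 APP/Tau libraries stood apart. It read 1.39, 0.989 and 1.39 CPM in the APP and 10.9, 3.48 and 5.99 CPM in the APP/Tau libraries. The lowest APP/Tau library thus held more than any APP library. The log2 change was 2.43 (SE 0.527, unadjusted p = 6.71e-05), which did not pass over all genes (adjusted p = 0.243). It did with DESeq2 (adjusted p = 0.00988) and under no other alternative. The adjusted p was 0.996 with limma-voom and quality weights and 0.9997 on only the groups compared. Without APP/Tau replicate 1 the log2 change was 1.92 (adjusted p = 0.47). In naive mice C3 stood at 1.53 to 2.61 CPM in APP and at 1.94 to 11.1 CPM in APP/Tau libraries, a log2 change of 1.44, and in trained Tau over trained WT mice the change was 0.54.

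The other complement genes divided by library. C3ar1, a receptor for a C3 fragment, read 0.682, 1.12 and 1.35 against 5.65, 2.1 and 1.51 CPM, and the integrin gene Itgb2 4.14, 4.4 and 3.69 against 16.7, 4.71 and 4.65 CPM, both without overlap. C1qa, a subunit of the complex that starts the classical pathway, stood at 24.3, 39.8 and 25.5 against 103, 27.8 and 28.1 CPM. C4b read 294 CPM in APP/Tau replicate 1 and 35.1 to 87.2 CPM in the other 5 libraries. Of 19 complement genes 17 lay above 0 (median 0.37), 4 did not overlap, all higher (21.1%, against 4.19% of all genes), and none was called. Without APP/Tau replicate 1 the median was 0.037. C3, C3ar1, Itgb2 and Itgam, a complement receptor subunit, were still apart. Leaving out a library cannot end a separation, so this does not test the part of that library.

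Antigen presentation and glial reactivity followed the same library. Of 22 MHC and antigen presentation genes 20 lay above 0, with a median of 0.63 that was 0.080 without APP/Tau replicate 1. In 1 (4.55%, near the 4.19% of all genes) every APP/Tau library was higher. Tap1, a peptide transporter, read 2.37, 3.3 and 2.8 against 7.68, 2.96 and 3.64 CPM, and H2-D1, a class I heavy chain, 25, 31 and 22.5 against 79.3, 29.5 and 36.5 CPM. Of 27 reactive astrocyte genes 22 lay above 0 (median 0.35, and 0.015 without that library). Gfap, the filament protein of reactive astrocytes, read 276, 364 and 708 against 1514, 494 and 366 CPM, and Vim 32, 30.8 and 41.8 against 95.8, 35.3 and 34.2 CPM. Lcn2 stood at 1.57 CPM in APP/Tau replicate 1 and at or under 0.0972 CPM elsewhere. Astrocyte identity markers lay closer to 0 (15 of 16 above 0, median 0.13, none apart), with Aqp4 at 105, 113 and 157 against 176, 154 and 154 CPM. Homeostatic microglia markers had a median of 0.38, and −0.0023 without APP/Tau replicate 1. P2ry12, a receptor of resting microglia, was lower in every APP/Tau library, at 37, 41 and 36.9 against 34.2, 36.5 and 31 CPM (unadjusted p = 0.173), while Sall1, a transcription factor of microglial identity, was higher in every one, at 20.1, 21.3 and 23.2 against 30.7, 25.1 and 28.2 CPM (log2 change 0.38, unadjusted p = 0.00111). T and B lymphocyte markers had low counts throughout, with Cd3e at 0 to 0.109 CPM and a list sum of 11.1 to 17.8 CPM in the 6 libraries. Their median was 0.23 and changed sign to −0.45 without APP/Tau replicate 1, which had the highest score of the 6 libraries (0.825).

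**Figure D3:**
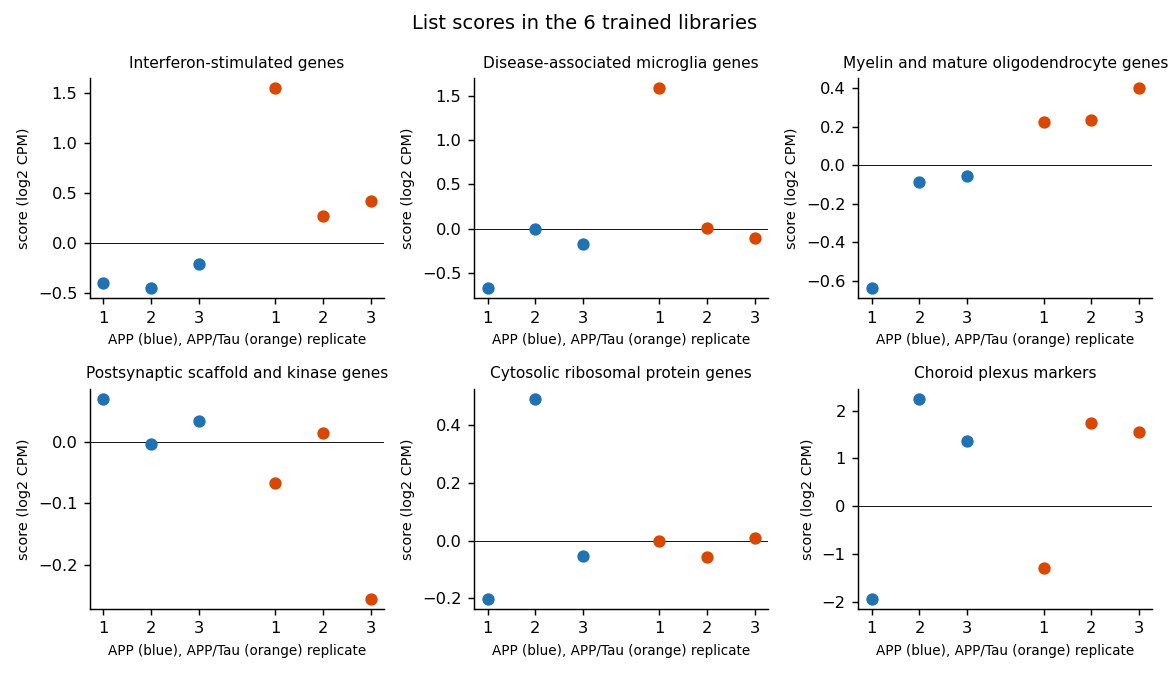
Each point is a trained library, and the axis is the list score, the mean log2 CPM of the members minus their mean over all 36 libraries. The interferon and myelin scores separate the groups in all 6 libraries, the disease-associated microglia score is high in APP/Tau replicate 1 alone, and choroid plexus markers are low in replicate 1 of both groups.

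Myelin genes were higher by a similar amount in all 3 APP/Tau libraries. All 24 tested members lay above 0 with a median log2 change of 0.54, and 21 had an unadjusted p under 0.05, all higher. In 14 of 24 (58.3%, against 4.19% of all genes) the groups did not overlap. None was called. Mbp, the myelin basic protein gene, read 1061, 1373 and 1434 CPM in the APP and 2072, 2041 and 1946 CPM in the APP/Tau libraries. The lowest APP/Tau value was well above the highest APP value. Its log2 change was 0.65 (SE 0.168, unadjusted p = 0.000512, adjusted p = 0.526). Mobp, a second abundant myelin protein, stood at 409, 492 and 610 against 812, 853 and 748 CPM (log2 change 0.68, SE 0.198).

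Surface protein, enzyme and regulatory members lay on the same side. Mag and Mog, proteins of the myelin surface, stood at 99.5, 148 and 139 against 171, 198 and 219 CPM and at 32.1, 51.4 and 47.9 against 55.7, 65.1 and 63.9 CPM. Fa2h, which hydroxylates myelin lipids, read 21.4, 32.7 and 29.3 against 35.2, 44.7 and 46.4 CPM. Myrf, the transcription factor that maintains myelin gene expression, stood at 48.6, 56.7 and 72.1 against 84, 87.7 and 84.5 CPM (log2 change 0.53, unadjusted p = 0.002). The gap junction gene Gjb1 had a log2 change of 0.56. The members with overlapping groups included Cnp, Ugt8a, Ermn, Mal, Aspa, Opalin and Gsn.

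The list held its direction without any single library, with medians from 0.39 (without APP replicate 1) to 0.64 (without APP replicate 3), and all 24 members above 0 in each of these 6 fits. APP replicate 1 was the lowest library, with a score of −0.64 against −0.086 and −0.053 in the other APP libraries and 0.23, 0.24 and 0.40 in the APP/Tau libraries. Without it 7 members had an unadjusted p under 0.05. Summed over the list, the APP libraries held 3734, 5313 and 5614 CPM and the APP/Tau libraries 6868, 7256 and 7477 CPM. Some libraries without Tau scored as high as these APP/Tau libraries. Scores ran from −0.44 to 0.23 in naive APP, −0.49 to 0.37 in naive WT and −0.31 to −0.22 in trained WT libraries. Naive APP/Tau libraries ran from −0.11 to 0.48. In the other comparisons of Tau the median was 0.26 (naive, on APP, 24 of 24 above 0) and 0.38 (trained, on WT, 23 of 24, and 0.48 without the library labelled Tau trained replicate 4). Mbp had log2 changes of 0.32 and 0.38 there. The tissue that borders the hippocampus also differed among these libraries. Thalamic and habenular markers summed to 198, 216 and 348 CPM in the APP and 235, 229 and 591 CPM in the APP/Tau libraries (14 of 19 above 0), and striatal markers to 493, 569 and 582 against 514, 551 and 588 CPM (12 of 18 above 0). Their part in the myelin difference was not tested. The fit without APP/Tau replicate 3, the library highest in thalamic markers, cannot test this, since the other libraries differed in these markers too.

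Earlier stages of the oligodendrocyte lineage differed by less. All 19 precursor and newly formed oligodendrocyte genes lay above 0 in this fit, with a median of 0.21. In 6 (31.6%, against 4.19% of all genes) the groups did not overlap. Tcf7l2, which is also in the thalamic list, had the highest log2 change at 1.23, with overlapping groups. Bcas1, a gene of early myelinating cells, read 72.1, 82.4 and 101 against 145, 150 and 128 CPM (log2 change 0.73, SE 0.206, unadjusted p = 0.00129). Sox10, the lineage transcription factor, stood at 31.2, 34 and 41.5 against 49.4, 53 and 51 CPM (log2 change 0.52, SE 0.15), and Enpp6 at 5.16, 6.99 and 6.66 against 8.91, 9.88 and 11.4 CPM. Pdgfra, the growth factor receptor of precursors, stood at 46.3, 51.1 and 65.1 against 52.3, 56.2 and 54.8 CPM (log2 change 0.01, SE 0.0853). Without APP replicate 1, 13 of 19 lay above 0, and the naive median was −0.049, with 7 of 19 above 0.

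Neuronal gene groups lay slightly lower in APP/Tau libraries, within small ranges. Of 32 postsynaptic scaffold and kinase genes 29 were below 0 (median −0.13), and 5 (15.6%, against 3.85% of all genes) were lower in every APP/Tau library. Dlg4, which encodes the scaffold PSD-95, read 707, 782 and 721 against 676, 696 and 622 CPM (log2 change −0.15, SE 0.0699, unadjusted p = 0.0416). Baiap2, an organiser of spine actin, stood at 318, 326 and 298 against 292, 285 and 213 CPM. Camk2a, the abundant synaptic kinase, overlapped at 4253, 3274 and 3941 against 3435, 3529 and 2581 CPM. APP/Tau replicate 3 was the lowest for all 3, and its score of −0.26 was the lowest of the 6 libraries, which otherwise lay between −0.067 and 0.070. Without it the median was −0.073 and 1 member had an unadjusted p under 0.05. That library is also the one with the most thalamic signal, and the part of this was not tested.

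Presynaptic genes had a median of −0.084, with 31 of 40 below 0 and 7 (17.5%, against 3.85% of all genes) lower in every APP/Tau library. Snap25, a subunit of the fusion machinery, read 2186, 2311 and 2152 against 1953, 2129 and 2134 CPM. Of 26 pyramidal cell genes of CA1, CA2 and CA3, 24 were below 0 (median −0.14). In 3 (11.5%, against 3.85% of all genes) every APP/Tau library was lower. The CA2 gene Rgs14 stood at 79.9, 96 and 79.4 against 72.7, 82.2 and 61 CPM. Calb1, the calcium buffer of granule and CA1 cells, was lower in every APP/Tau library, at 118, 123 and 119 against 99.7, 106 and 100.4 CPM (log2 change −0.23, unadjusted p = 0.0225), and had a log2 change of −0.20 in naive mice. Granule cell genes as a list had a median of −0.049, and glutamate and GABA receptor subunits one of −0.024 with none apart. In trained Tau over trained WT mice the postsynaptic, presynaptic and pyramidal medians had the other sign, at 0.082, 0.044 and 0.078, and at 0.078, 0.050 and 0.078 without the library labelled Tau trained replicate 4. In naive APP/Tau over naive APP mice they were −0.093, −0.090 and −0.092.

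Interneuron genes gave no common direction. Sst, the neuropeptide somatostatin, read 174, 205 and 131 against 154, 131 and 115 CPM (log2 change −0.35, unadjusted p = 0.0283), Npy 23.8, 27.6 and 22.8 against 24.4, 19.9 and 16.3 CPM, and Vip 18.4, 19.9 and 18.2 against 21, 17.8 and 12.3 CPM. Of 19 neuropeptide genes 10 were below 0 and 4 were lower in every APP/Tau library (21.1%, against 3.85% of all genes). Pvalb, the calcium buffer of fast-spiking cells and the driver of Cre in these mice, stood at 13.8, 18.7 and 13.2 against 3.15, 14 and 16 CPM. Its low value belongs to APP/Tau replicate 1, the library with high Clec7a. The fast-spiking list of 25 genes had a median of 0.085 with 16 above 0, and Gad1, the GABA-synthesising enzyme, read 336, 306 and 318 against 315, 298 and 374 CPM.

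Genes that respond to neuronal activity were listed because tissue for all 6 libraries was taken 2 hours after a probe test. Their median was −0.15, with 31 of 40 below 0 and 4 (10%, against 3.85% of all genes) lower in every APP/Tau library. The direction depended on APP replicate 2, without which the median was 0.011. Fos read 17.2, 30.7 and 36.8 against 25.2, 14 and 31.9 CPM, Arc 122, 257 and 189 against 162, 155 and 193 CPM, and Npas4 16.5, 22.9 and 18.7 against 21.8, 15 and 19.9 CPM, all with overlapping groups. Gadd45b, a DNA demethylation factor induced by activity, stood lower in every APP/Tau library, at 12.5, 16.5 and 13.1 against 11.7, 11.5 and 9.47 CPM (log2 change −0.37, unadjusted p = 0.0419). Bdnf, the neurotrophin gene, overlapped at 44.2, 53 and 50.6 against 39.9, 46.7 and 41.3 CPM.

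Housekeeping groups followed APP replicate 2 in the same way. Of 79 cytosolic ribosomal protein genes 76 were below 0 (median −0.14) and none was apart, and without APP replicate 2 their median was 0.092. Of 76 nuclear genes of oxidative phosphorylation 72 were below 0 (median −0.14), and without that library the median was 0.051. APP replicate 2 scored 0.49 and 0.42 on these lists and the other 5 libraries between −0.20 and 0.018. No direction is therefore given for them in trained APP/Tau over trained APP mice. In naive APP/Tau over naive APP mice the ribosomal and oxidative phosphorylation medians were −0.12 (4 of 79 above 0) and −0.14 (0 of 76). In trained Tau over trained WT mice they were 0.048 (63 of 79) and 0.049 (67 of 76). Heat shock, unfolded protein response and glucocorticoid response genes had medians of −0.085, −0.059 and 0.016, and cholesterol synthesis genes −0.090.

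Tau kinases and phosphatases, the genes closest to the transgene's own protein, had a median of −0.062, with 31 of 38 below 0. In 5 (13.2%, against 3.85% of all genes) every APP/Tau library was lower. Cdk5r1, the activator of the tau kinase CDK5, read 255, 276 and 249 against 226, 249 and 241 CPM (log2 change −0.12, unadjusted p = 0.0585), with APP replicate 3 and APP/Tau replicate 2 almost equal. Gsk3b, another tau kinase gene, overlapped at 224, 198 and 252 against 196, 229 and 244 CPM. The secretases and other genes of APP processing stayed within 0.46 of 0 in either direction, with 11 of 19 above 0 and none apart. Bace1, the β-secretase, read 115, 112 and 122 against 114, 120 and 124 CPM.

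**Figure D4:**
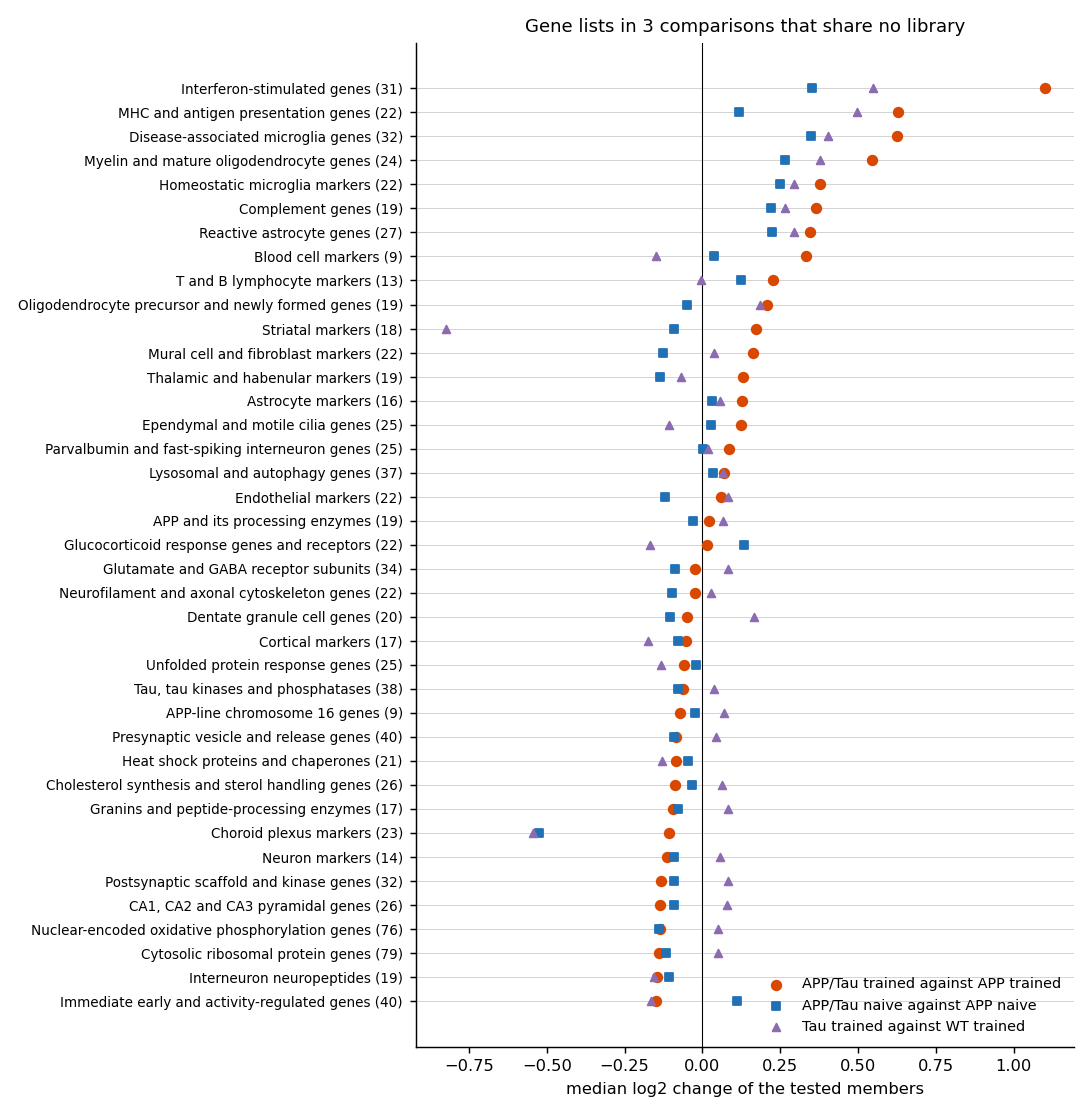
Each symbol is the median log2 change of a gene list in 1 comparison, with the number of tested members in brackets. Interferon genes lie at 1.10 in trained APP/Tau over trained APP libraries and at 0.35 and 0.55 in the other 2 comparisons of Tau, which share no library with it. Interferon, microglia, complement, MHC and myelin lists lie above 0 in all 3, and synaptic lists below 0 in both comparisons on the APP background.

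Beyond the lists, the genes with the smallest p were not called either. On the higher side they included Sspn, which encodes sarcospan of the dystrophin complex, at 8.95, 9.68 and 9.37 against 13.9, 14.1 and 16.7 CPM. The values within each group lay close together and the groups were well apart, with a log2 change of 0.68 (SE 0.154, adjusted p = 0.323). In naive mice and on the WT background its log2 change was 0.10 and 0.20, the latter 0.33 without the library labelled Tau trained replicate 4. The uncharacterised gene LOC118567523 read 13.6, 18.6 and 19 against 23.8, 25.4 and 27.1 CPM (adjusted p = 0.314). On the lower side, Snhg6, a host gene of small nucleolar RNAs, stood at 6.95, 7.63 and 4.98 against 4, 5.12 and 3.34 CPM (log2 change −0.65, adjusted p = 0.453). Thg1l, which adds a guanosine to histidine tRNA, and Zfp638, a nuclear zinc finger gene, had log2 changes of −0.36 and −0.34, and both were lower in every APP/Tau library.

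Dnttip2 had the smallest p on the lower side. It encodes a nucleolar protein of ribosome assembly and, like Gm32754, lies on chromosome 3, 260 genes away in the order of GRCm38.p6. It read 12.5, 20.7 and 22 CPM in the APP and 10.2, 11.8 and 10.3 CPM in the APP/Tau libraries. The groups were apart, but APP replicate 1 stood next to the APP/Tau libraries. The log2 change was −0.77 (SE 0.161, adjusted p = 0.13), and it was −0.99 without APP replicate 1, which passed (adjusted p = 0.00489), as it did with DESeq2 (adjusted p = 0.00988). It passed under no other alternative. The adjusted p was 0.996 with limma-voom and quality weights and 0.9997 on only the groups compared. In naive mice Dnttip2 fell from 15.7 to 23.1 CPM in APP to 10.9 to 14.5 CPM in APP/Tau libraries, a called log2 change of −0.72.

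The effect of Tau on the APP background was compared with that on the WT background in the same model, and 3 genes passed (0.0118%), all with a negative difference. Dnttip2 was lower in APP/Tau than in APP but higher in trained Tau (23.3, 22.8, 23.4 and 19.8 CPM) than in trained WT libraries (11.2, 11.6, 11.7, 12.5 and 14.9 CPM). The difference of the 2 log2 changes was −1.63 (SE 0.207, adjusted p = 0.000122). The values in WT and APP/Tau libraries thus overlapped. APP replicates 2 and 3 lay within the range of the Tau libraries only through the library labelled Tau trained replicate 4. They lay below the other Tau libraries, which read 22.8 to 23.37 CPM. Fmn2, a formin that nucleates actin, read 50.8, 51.3 and 54.9 CPM in the APP and 43.6, 36.9 and 37.3 CPM in the APP/Tau libraries (log2 change −0.41), against 0.40 for Tau on WT, a difference of −0.82. Phf20, a chromatin reader, stood at 72.5, 79.6 and 74.2 against 67, 63.4 and 55.8 CPM (log2 change −0.28), against 0.44 for Tau on WT, a difference of −0.72.

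The library labelled Tau trained replicate 4 carries none of the Tau-line transcripts, which bears on each of these. Without it the difference was −1.68 for Dnttip2 (adjusted p = 0.000121) and −0.82 for Fmn2, which then missed the threshold (adjusted p = 0.0578), while Phf20 passed. Leaving out single libraries of the 4 groups kept the call of Dnttip2 in each fit and ended that of Fmn2 or Phf20 in most. The smallest adjusted p for a difference between trained and naive mice was 1, with 816 genes at an unadjusted p under 0.05, so no gene's response to Tau was shown to depend on training.

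**Figure D5:**
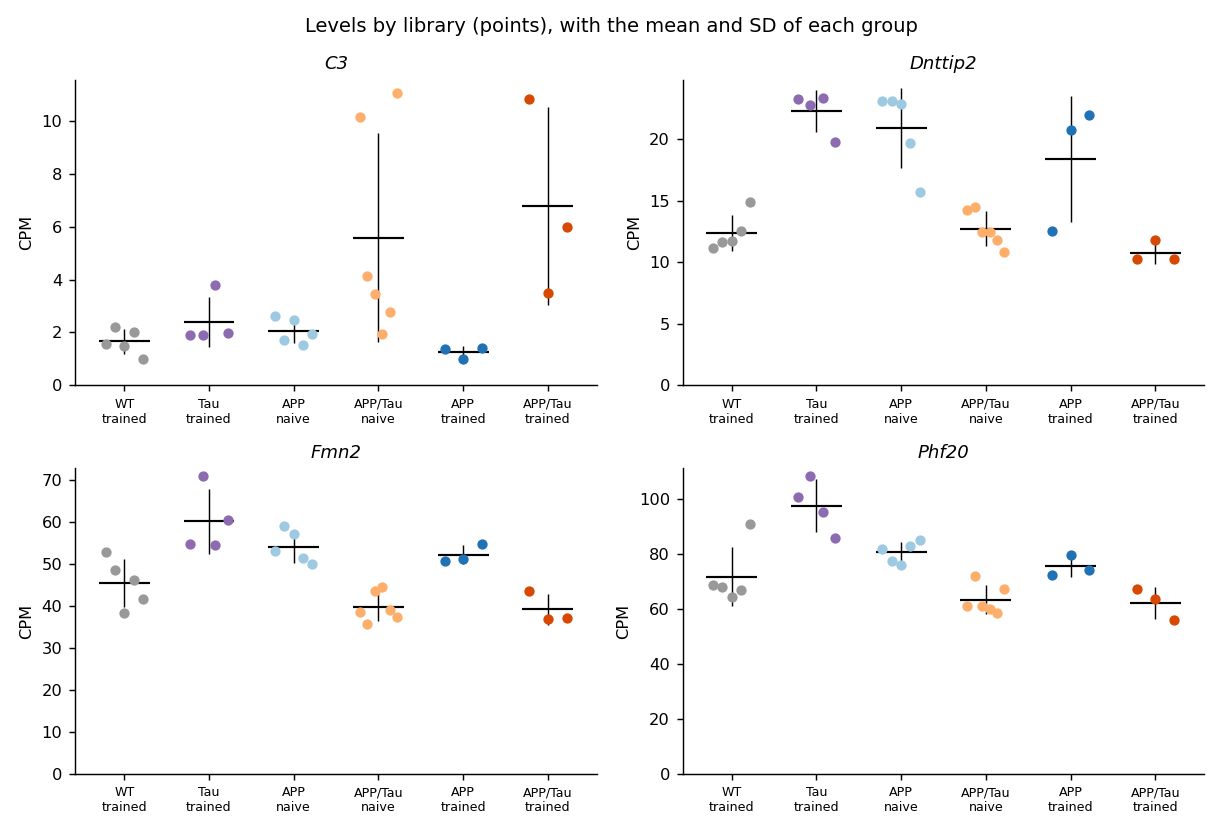
CPM by library (points) with the mean (line) and SD (bar) of each group. C3 reaches 10.9 CPM in trained and 11.1 CPM in naive APP/Tau libraries and stays at or under 3.81 CPM elsewhere, while Dnttip2, Fmn2 and Phf20 have a higher mean in trained Tau than in trained WT and a lower mean in APP/Tau than in APP libraries.

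The dissections were not equal, and the values are given so that the results above can be read with them. Choroid plexus markers, which report ventricular tissue, summed to 277, 7148 and 4087 CPM in the APP and 388, 4124 and 3815 CPM in the APP/Tau libraries, so replicate 1 of both groups was poor in them. Ttr, their most abundant member, read 38.9, 4348 and 2535 against 67.1, 2036 and 1915 CPM. With those 2 libraries left out together, an alternative chosen after seeing the data, the interferon and myelin medians were 0.66 and 0.41, and those of disease-associated microglia, complement and MHC genes −0.019, −0.059 and −0.035. Drd1 and Drd2, markers of striatum, overlapped at 4.69, 4.3 and 5.81 against 5.86, 3.57 and 5.15 CPM and at 2.39, 3.9 and 3.39 against 3.62, 2.85 and 9.46 CPM, and globin genes such as Hbb-bs, a sign of blood, stood at 51, 38.8 and 38.3 against 51.8, 42.5 and 67.1 CPM. Neuronal identity was plain in all 6 libraries, with Rbfox3 at 233 to 303 CPM and the neuron marker list at 11240 to 13900 CPM in sum.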

How the data were processed

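Bulk RNA sequencing of hippocampal input RNA gave a table of counts per gene for 36 libraries in 8 groups of genotype and training, which the authors deposited as raw counts. The submitters' processing notes name Trimmomatic 0.39, a read trimmer, and mm39 as genome build. Which aligner, counter, annotation and strand setting were used is not given in the sources used here, so overlapping and antisense genes cannot be told apart. Even numbers made up 54.7% of the small counts (1 to 10) and 50% of those above 1000.

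Groups came from the labels. Genes were kept by edgeR's filterByExpr (minimum count 10, minimum total 15), which left 25382 of 50559. All 36 libraries entered 1 fit (edgeR 4.0.16, TMM, robust quasi-likelihood test, R 4.3.3), with Benjamini-Hochberg adjustment over all genes tested and a threshold of 0.05. SE is the absolute log2 change over the square root of F. Contrasts were APP/Tau minus APP in trained and in naive mice, Tau minus WT in trained mice, and the 2 differences between these. Scores used log2 CPM with a prior count of 2. The limit for a group without counts was 3 counts, and intervals and limits cover counting error only.

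Named genes were those marked in the gene lists, all called genes, the 5 with the smallest p in each direction, 2 members of each list whose median was at least 0.15 in size, and genes called in a difference test. The members, lists and tests were chosen with earlier results of these data known. Promoters are RefSeq sequences on GRCm38.p6, a different build from that of the counts, used for sequence, names and gene order only. On simulated counts for this comparison (25044 genes tested), 87% of genes changed by 1 on the log2 scale and 96% of those changed by 2 were called, with 14 false calls. The changed genes, 100 of each size, were drawn from the better-expressed genes. The simulated counts held no outlier library and no difference in dissection. These shares therefore do not tell how many real changes of that size were missed. Alternatives were RLE size factors, no filter, the sample number as a block, the library number as a covariate, only the groups compared, sample quality weights in limma-voom (limma 3.58.1), DESeq2 1.42.0, and leaving out single libraries. Leaving out libraries of the other groups, and both libraries poor in choroid plexus markers, was added after seeing the data. The values of some list members are not reported here, though they stay in the lists' counts and medians.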

Additional observations from a re-analysis of the deposited data

Results flagged for a closer look

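Dnttip2 had a Tau effect on the APP background that differed from that on the WT background by −1.625 on the log2 scale in trained mice, by a test of the difference itself. By the same test, the difference was −0.8181 for Fmn2 and −0.7225 for Phf20. In each, the change was negative in APP/Tau over APP libraries and positive in Tau over WT libraries.

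In 4 of 44 groups checked, 1 library lay far from the rest, where chance gives about 1 in 20. C3 stood at 3.814 CPM in the library labelled Tau trained replicate 3, and at 1.905 to 1.976 CPM in the others of that group. Dnttip2 stood at 19.77 CPM in the library labelled Tau trained replicate 4, the one without Tau-line transcripts, and at 22.8 to 23.37 CPM in the others. In WT trained replicate 5, Phf20 stood at 90.98 CPM (the others at 64.39 to 68.51) and Mbp at 984 CPM (the others at 1429 to 1538).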

How the results depend on the processing

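For trained APP/Tau against APP, 3 genes were called, 6 with DESeq2, 1 on only the groups compared, 0 with limma-voom and quality weights, which changes test and weighting together (1148 genes at an unadjusted p under 0.05) and 0 with both choroid-poor libraries left out (1474 genes). Leaving out single libraries gave 0 (without APP replicate 3, where 2661 genes had an unadjusted p under 0.05) to 3. Lamr1-ps1 and Gm32754 missed the threshold without any 1 of the APP libraries. With the sample number as a replicate block, 1 gene was called. Deviations of libraries with the same number correlated at 0.401, 0.0518 and 0.189, and those with different numbers at −0.346 to 0.238. These values do not settle whether the numbers pair samples. The labels do not say that they do, so the main fit did not pair them. For naive mice DESeq2 called 14 genes, and leaving out single libraries 7 to 9. For Tau against WT the 82 calls became 48 without a filter, 238 with the library number, 553 with DESeq2, 1300 with limma-voom and quality weights, 215 on only the groups compared and 184 with the choroid-poor libraries left out. There, leaving out single libraries gave 10 (without Tau trained replicate 1) to 335 (without WT trained replicate 5), and 29 without Tau trained replicate 4. For the difference between backgrounds, DESeq2 called 5, limma-voom with quality weights 1 and only the groups compared 1, the block 2, and leaving out single libraries 1 to 3. For the difference by training the count was 0 in each. The causes were not tested. No called gene changed direction. Of 39 list medians, 23 changed sign in at least 1 alternative (41 of 546 values). Without APP replicate 2 the ribosomal median was 0.092, the oxidative phosphorylation median 0.051 and the choroid plexus median 0.71 (1.23 with limma-voom and quality weights). Without APP/Tau replicate 1 the lymphocyte median was −0.45, and without APP/Tau replicate 3 the thalamic median was −0.32. With both choroid-poor libraries left out, the disease-associated microglia, complement and MHC medians lay below 0. The 16 that kept their sign included the interferon, myelin, oligodendrocyte precursor, presynaptic, postsynaptic and pyramidal lists. With 3 libraries a group, changes in genes of low count are the least certain.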
